A study of Homo sapiens with 8 samples.

Results

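The BCL2 family decides whether mitochondria release cytochrome c. In A549 cells, 10 of its genes were followed through knockdown of the antisense RNA LY6K-AS and knockdown of YWHAG. The genes were the pro-survival members BCL2L1, BCL2L2 and MCL1, the pore-forming effectors BAX and BAK1, and the BH3-only members BBC3, PMAIP1, BID, BCL2L11 and BIK. They were chosen as the rows of both expression tables whose Ensembl identifier carries one of these symbols in GENCODE release 29. All 10 were found in both tables, 10 of 66206 rows in each.

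RNA from A549, a human lung adenocarcinoma cell line with epithelial features, was sequenced in 8 libraries, and the series title concerns LY6K-AS and mitosis in that cancer. All cells were grown in DMEM with serum and antibiotics and transfected with the same lipid reagent. A pair of libraries came from cells given 25 pmol of a scramble LNA gapmer (LNA controls 1 and 2), and another pair from cells given 25 pmol of a gapmer against LY6K-AS (LY6K-AS knockdowns 1 and 2). A gapmer is an antisense oligonucleotide through which RNase H cleaves the bound RNA. For the other arm, 2 libraries followed 40 pmol of scramble siRNA and 2 followed 40 pmol of siRNA against YWHAG, which encodes the adaptor protein 14-3-3 gamma. The labels give no time after transfection. The LY6K-AS libraries are titled LNA1 and LNA3 and the YWHAG libraries si1 and si2, which may stand for separate oligonucleotides. The scramble siRNA columns carry the numbers 2 and 3 in their table and are called siRNA controls 2 and 3 here. Nothing in the labels states that paired libraries are separate cultures, so each p-value reflects only the spread among these libraries, which may be technical. A single cell line was used, so differences between tumours are not covered.

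BAX and BAK1 proteins, once activated, assemble in the mitochondrial outer membrane and open pores that let cytochrome c reach APAF1, which then activates caspase-9. The proteins BCL-XL (from BCL2L1), BCL-W (BCL2L2) and MCL1 bind and hold the effectors in check. BH3-only proteins are the stress sensors of the family: they bind the pro-survival proteins, and some also activate BAX and BAK1 directly. BBC3 encodes PUMA, PMAIP1 encodes NOXA and BCL2L11 encodes BIM. MCL1 protein is known to be degraded during prolonged mitotic arrest. The 14-3-3 proteins are known to bind phosphorylated BAD and FOXO factors and keep them in the cytosol.

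The libraries held 26.2 to 34.6 M implied reads each (M, 1e6 reads), and mitochondrially encoded genes took 4.12 to 8.43% of these in the LNA table and 14.0 to 18.2% in the siRNA table. For LNCOC1, the GENCODE gene that stands for LY6K-AS, 34 and 17 reads were recovered from LNA controls 1 and 2 against 3 and 8 from the knockdowns, a depth-scaled ratio of 0.244 with an exact 95% interval of 0.115 to 0.474. YWHAG stood at 163 and 158 RPKM in the siRNA controls and at 13.5 and 4.91 RPKM in the YWHAG knockdowns. RPKM are reads per kilobase of gene length per 1e6 reads. Of the epithelial markers, the keratins KRT8 (285 to 438 RPKM) and KRT18 (230 to 558 RPKM) were abundant in all 8 libraries, KRT19 ranged from 4.26 to 120 RPKM and CDH1 from 4.42 to 13.5 RPKM. EPCAM was at 1.14 to 1.82 RPKM in the LNA table and 4.39 to 10.6 in the siRNA table, and CLDN4 was below the filter in the siRNA table. By contrast the leukocyte marker PTPRC and the endothelial marker VWF stood at or below 0.00837 RPKM in each. All of the fibroblast, immune and endothelial markers listed stayed below 0.77 RPKM in every library except COL1A1 (0.709 to 9.41 RPKM) and CD14 (0.566 to 3.26 RPKM).

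In the scramble controls, effector and pro-survival transcripts dominated. Levels here are per kilobase of merged exon length, the scale on which genes are set side by side within a table. The deposited LNA values had been divided by genomic span, and no source used here states whether intronic reads entered them. Levels of genes with long introns may therefore hold intronic reads, and the order in the LNA table, BCL2L1 over MCL1 included, is subject to this (BCL2L1 spans 59538 bases with 3314 exon bases, MCL1 5188 with 4371). In the LNA controls BAX was highest (mean 90.2 RPKM), followed by BCL2L1 (68.0), MCL1 (54.1), BID (10.9), BCL2L2 (8.45), BAK1 (5.85), PMAIP1 (4.72), BBC3 (4.31), BCL2L11 (3.95) and BIK (0.488). Ranges over the 2 controls overlapped between PMAIP1 and BBC3 and between BBC3 and BCL2L11, and between no other neighbours in this order. The siRNA controls put BAX first again (53.2 RPKM), then MCL1 (38.5), BCL2L1 (36.1), BAK1 (8.56), BID (7.73), BCL2L2 (7.71), BCL2L11 (5.86), BBC3 (2.56), PMAIP1 (1.55) and BIK (0.822). There MCL1 overlapped with BCL2L1 and BID with BCL2L2. The tables were normalized separately, so a level in one is not set against a level in the other. All 10 members passed the filter of at least 0.5 RPKM in at least 2 libraries of each table. BIK, with 11 to 48 reads a library, was close to it, and in the LNA table it passed through its knockdown libraries alone.

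**Figure D1:**
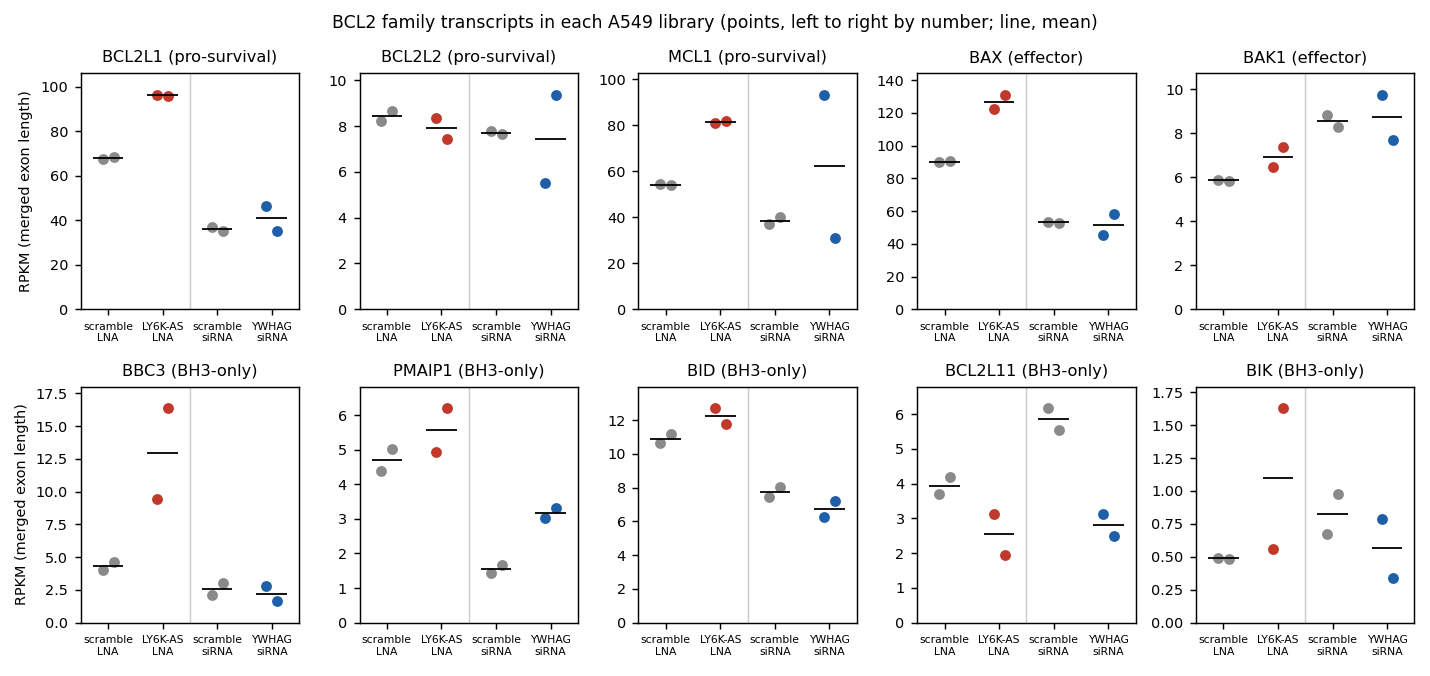
RPKM per kilobase of merged exon length (y axis, linear, from 0, a scale for each gene) of the 10 members in each library, with scramble controls in grey, LY6K-AS knockdowns in red and YWHAG knockdowns in blue; points are single libraries and lines the means of 2. BCL2L1, MCL1, BAX, BAK1, BBC3, BID and BIK lie above both LNA controls in both LY6K-AS knockdowns. BCL2L11 lies below both controls after either knockdown, and MCL1 is split between the YWHAG knockdowns at 93.2 and 31.1 RPKM.

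Promoter windows are shown for BAX, BBC3 and PMAIP1, the pro-death members whose knockdown libraries both lay above control with an unadjusted limma p under 0.05 in a comparison below. RefSeq (GRCh38.p14) gave windows for 7 of the 10 members, 12 windows in all, each running from 250 bases before to 50 after an annotated start. BCL2L2, MCL1 and BIK had no entry. The stretches printed are the parts upstream of the gene's outermost GENCODE start, written 5′ to 3′ on the gene's strand. Capitals mark CACGTG (the E-box read by MYC and USF factors) in BAX and BBC3, and TGACG on the reverse strand, printed as CGTCA (the core of the ATF/CREB site), in PMAIP1.
BAX, chr19:48954625-48954814, plus strand: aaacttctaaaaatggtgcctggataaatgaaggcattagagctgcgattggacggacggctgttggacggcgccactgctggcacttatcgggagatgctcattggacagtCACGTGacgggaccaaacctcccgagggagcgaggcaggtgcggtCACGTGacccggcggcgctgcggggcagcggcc
BBC3, chr19:47232767-47232917, minus strand: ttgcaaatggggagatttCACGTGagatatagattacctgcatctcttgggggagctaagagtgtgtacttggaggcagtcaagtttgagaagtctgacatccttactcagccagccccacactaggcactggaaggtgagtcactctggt
PMAIP1, chr18:59899746-59899947, plus strand: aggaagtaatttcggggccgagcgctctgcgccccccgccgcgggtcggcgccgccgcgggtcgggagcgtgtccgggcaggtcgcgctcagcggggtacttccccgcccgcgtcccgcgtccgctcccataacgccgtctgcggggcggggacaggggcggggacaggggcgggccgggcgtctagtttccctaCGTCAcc

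Both strands were searched for each motif. CACGTG occurred 4 times in the BAX window, with first bases at −138, −93, −45 and −14 from the RefSeq start, and 2 of these lie in the printed stretch. It occurred once in BBC3, at −232, and in 2 overlapping windows of BID, and 7.2% of the 34943 promoter windows of this length held it. TGACG lay at −55 in PMAIP1, at −134 in BAX, where its letters share bases with the first CACGTG, and at −201 in one BCL2L1 window, against 24.5% of all windows. TGANTCA, the AP-1 site, stood at −113 in BBC3 (7.7% of windows). GGGCGG, the Sp1 box, was found 4 times in PMAIP1 and was the commonest motif searched, in 44.9% of all windows. The p53 half-site, the p53 full site and an NF-kB consensus were searched too and were absent from the windows of BAX, BBC3 and PMAIP1. A p53 half-site stood at −73 in BAK1, and 6.6% of all windows held one. All of these counts cover only windows of 300 bases.

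The first comparison asked how the family stood once LY6K-AS was depleted. The mean RPKM of BBC3 was 3.0 times that of control, and the means of MCL1, BAX and BCL2L1 were 1.5, 1.40 and 1.41 times control, while BCL2L2 and PMAIP1 overlapped their controls. BCL2L11 was the single member with both knockdown libraries below both controls, at 0.644 of control. Both knockdown libraries lay above both controls for 7 of the 10 members, against 31.4% of the 14662 genes tested, and below both for 1, against 30.5% (8 of 10 beyond both controls, against 62% of genes). BIK passed the filter only through its knockdown libraries, since both controls were under 0.5 RPKM, which partly fixed its place above them, and without it 6 of 9 members lay above both controls. None of the 10 passed the test across all genes. Limma with Benjamini-Hochberg adjustment called 0% of genes, the smallest adjusted p being 0.103, while 3706 genes (25.3%) had an unadjusted p under 0.05. Limma voom on the recovered reads called 0 too. Among the members, 4 of 10 had an unadjusted p under 0.05, all of them higher, against 13.6% of genes higher at that p. With knockdown 1 left out, the log2 changes of BCL2L1, MCL1, BAX and BBC3 were 0.49, 0.58, 0.53 and 1.715. With knockdown 2 left out they were 0.50, 0.57, 0.43 and 0.98. In both fits the spread is that of the controls alone.

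Among the pro-survival members, MCL1 and BCL2L1 stood above control and BCL2L2 did not. MCL1 (ENSG00000143384.12, hg38 chr1:150574551-150579738, minus strand), a short-lived protein that cells must keep making, read 54.2 and 54.1 RPKM in LNA controls 1 and 2 and 80.8 and 81.6 in LY6K-AS knockdowns 1 and 2. The groups were far apart and each pair was tight. The log2 change was 0.58 ± 0.08 (SE), with a 95% interval of 0.35 to 0.80 and a limma adjusted p of 0.103. BCL2L1 (ENSG00000171552.12, chr20:31664452-31723989, minus strand) read 67.5 and 68.4 RPKM in the controls and 96.4 and 95.7 in the knockdowns, again without overlap. Its log2 change was 0.49 ± 0.08 (limma adjusted p = 0.104). The antisense gene ABALON covers 43.0% of the exon bases of BCL2L1, and since the sources used here name no strand setting for the counting, reads of the pair cannot be told apart. BCL2L2 (ENSG00000129473.9, chr14:23298790-23311759, plus strand) read 8.23 and 8.67 RPKM in the controls and 8.37 and 7.45 in the knockdowns, which overlapped. The log2 change of BCL2L2 was −0.09 ± 0.10 (limma adjusted p = 0.616, 95% interval −0.36 to 0.19), and 19.4% of its exon bases are shared with the read-through gene BCL2L2-PABPN1.

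Both effectors stood above both controls. BAX (ENSG00000087088.19, chr19:48954815-48961798, plus strand) read 89.7 and 90.8 RPKM in the controls and 122 and 131 in the knockdowns. Its log2 change was 0.48 ± 0.09 (95% interval 0.23 to 0.73, limma adjusted p = 0.107). BAK1 (ENSG00000030110.12, chr6:33572547-33580293, minus strand), the effector that resides on the mitochondrial membrane, read 5.87 and 5.83 RPKM in the controls and 6.48 and 7.38 in the knockdowns, a log2 change of 0.21 ± 0.10 (limma adjusted p = 0.280). BAX was thus the more abundant effector in every library and BAK1 the one whose interval, −0.07 to 0.48, included 0.

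The BH3-only members differed in direction. BBC3 (ENSG00000105327.15, chr19:47220822-47232766, minus strand), which binds every pro-survival protein, read 4.01 and 4.60 RPKM in the controls and 9.44 and 16.4 in the knockdowns. Neither knockdown overlapped the controls, and the knockdowns differed from each other by more than the controls did. BBC3 had a log2 change of 1.35 ± 0.27 (95% interval 0.62 to 2.08, limma adjusted p = 0.110), and 0.225% of all genes tested had a larger change in either direction. PMAIP1 (ENSG00000141682.11, chr18:59899948-59904306, plus strand), a selective partner of MCL1, read 4.4 and 5.04 RPKM in the controls and 4.94 and 6.21 in the knockdowns. The ranges overlapped, with a log2 change of 0.20 ± 0.14 (limma adjusted p = 0.419). BBC3 and PMAIP1 therefore stood in another proportion: the ratio of BBC3 to PMAIP1 was 0.911 and 0.913 in LNA controls 1 and 2 against 1.91 and 2.64 in the knockdowns. Their log2 changes lay closer together, at 0.91 and 0.38, once the GC trend described below was removed.

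BCL2L11 (ENSG00000153094.21, chr2:111119378-111168447, plus strand) read 3.71 and 4.18 RPKM in the controls and 3.14 and 1.94 in the knockdowns. Both knockdowns were lower, library 2 by more. The log2 change was −0.50 ± 0.20 (limma adjusted p = 0.212, 95% interval −1.03 to 0.03), or −0.19 on the values as deposited, and 10.9% of the exon bases of BCL2L11 overlap MIR4435-2HG on the opposite strand. BID (ENSG00000015475.18, chr22:17734138-17774770, minus strand), which caspase-8 cleaves to link death receptors to mitochondria, ranged from 10.7 to 11.2 RPKM in the controls and from 11.8 to 12.7 in the knockdowns (log2 change 0.15 ± 0.09, limma adjusted p = 0.348). BIK (ENSG00000100290.2, chr22:43110748-43129712, plus strand), a BH3-only protein of the endoplasmic reticulum, rested on 16 and 14 reads in LNA controls 1 and 2 against 14 and 48 in knockdowns 1 and 2. Its high mean in the knockdowns thus came from library 2, and its log2 change was 0.45 ± 0.27 (limma adjusted p = 0.361).

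**Figure D2:**
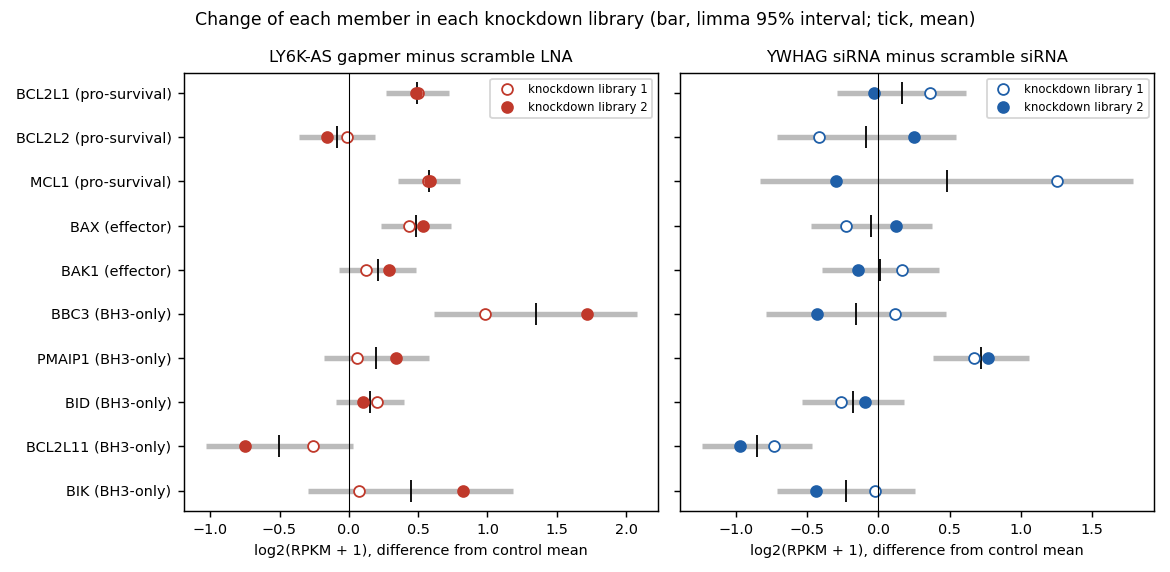
Difference of each knockdown library from the mean of its own scramble controls on the log2(RPKM + 1) scale (x axis) for the 10 members (rows), with open circles for knockdown library 1, filled circles for library 2, ticks for the mean and bars for limma's 95% interval. After the LY6K-AS gapmer the intervals of BCL2L1, MCL1, BAX and BBC3 lie above 0; after YWHAG siRNA that of PMAIP1 lies above 0, that of BCL2L11 below 0, and MCL1 has points at 1.26 and −0.30.

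Genes of higher GC content had more positive changes after LY6K-AS knockdown. Over the 14662 genes, which share the same 4 libraries, the Spearman rho of change with exon GC content was 0.53. Exon GC content was 69.7% in BBC3, 58.9% in BAX, 58.8% in BAK1, 56.9% in BCL2L1, 45.1% in MCL1 and 37.2% in PMAIP1. Once each library's GC trend was taken out, a setting added after the data were seen, the log2 change was 0.91 for BBC3, 0.28 for BAX, 0.01 for BAK1, 0.35 for BCL2L1, 0.68 for MCL1 and 0.38 for PMAIP1. After YWHAG knockdown the same rho was 0.03. The share of mitochondrially encoded reads was 8.43 and 6.43% in the LNA controls and 8.37 and 4.12% in LY6K-AS knockdowns 1 and 2, the latter being the library with the higher BBC3 and BIK and the lower BCL2L11. The part of that share in these values was not tested.

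The second comparison set YWHAG knockdown against scramble siRNA. PMAIP1 stood 2.06-fold above control and BCL2L11 at 0.480 of control, so these BH3-only genes lay on opposite sides of control. MCL1 was high in one knockdown library and low in the other, and the other 7 members had mean log2 changes between −0.23 and 0.16. Both knockdown libraries were above both controls for 1 of 10 members, against 20.4% of the 13903 genes tested, and below both for 2, against 30.8% (3 of 10 beyond both, against 51.2%). No member passed: limma called 0% of genes (smallest adjusted p 0.130), with 2281 genes (16.4%) at an unadjusted p under 0.05, and limma voom called 0 as well. At that unadjusted p there was 1 member higher, against 7.51% of genes, and 1 lower, against 8.9%.

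PMAIP1 read 1.43 and 1.66 RPKM in siRNA controls 2 and 3 and 3.04 and 3.33 in YWHAG knockdowns 1 and 2. The knockdowns lay together and well clear of the controls. The log2 change was 0.72 ± 0.13 (95% interval 0.38 to 1.05, limma adjusted p = 0.185), and 3.88% of genes had a larger change. BCL2L11 read 6.18 and 5.54 RPKM in the controls and 3.13 and 2.49 in the knockdowns. Again the pairs did not overlap. BCL2L11 had a log2 change of −0.85 ± 0.15 (95% interval −1.24 to −0.46, limma adjusted p = 0.183), and 2.12% of genes had a larger change. In RNA pooled from many cells, less transcript per cell and fewer of the cells that carry it cannot be told apart.

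MCL1 read 36.9 and 40.1 RPKM in the siRNA controls and 93.2 and 31.1 in the YWHAG knockdowns. Knockdown 1 was thus far above the controls and knockdown 2 below them, with differences of 1.26 and −0.30 from the control mean on the log2 scale. A wider gap between the knockdown libraries was seen in 0.683% of genes tested. The mean log2 change of MCL1, 0.48 ± 0.51 (limma adjusted p = 0.668, 95% interval −0.83 to 1.79), describes neither library. BCL2L1 read 37.2 and 34.9 RPKM in the controls and 46.5 and 35.2 in the knockdowns (log2 change 0.16 ± 0.18, limma adjusted p = 0.673). BCL2L2 parted the other way, with 7.77 and 7.65 RPKM in siRNA controls 2 and 3 against 5.52 and 9.37 in knockdowns 1 and 2. For each pro-survival member the YWHAG knockdowns thus lay on opposite sides of the control mean, that of BCL2L1 by 0.36 and −0.03.

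The effectors overlapped their controls after YWHAG knockdown. BAX read 53.5 and 52.9 RPKM in the controls and 45.4 and 58.1 in the knockdowns (log2 change −0.05 ± 0.16). BAK1 read 8.84 and 8.29 RPKM in the controls and 9.75 and 7.68 in the knockdowns (0.01 ± 0.16). Their limma adjusted p-values were 0.900 and 0.973. BBC3 read 2.07 and 3.05 RPKM in the controls and 2.82 and 1.61 in the knockdowns (−0.16 ± 0.25), and BIK 0.670 and 0.974 in the controls and 0.789 and 0.342 in the knockdowns (−0.23 ± 0.19). Both spread over and below the control range. BID read 7.42 and 8.04 RPKM in the controls and 6.26 and 7.19 in the knockdowns, both lower (−0.18 ± 0.14, limma adjusted p = 0.557).

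The members were then read as pro-survival against pro-death. After LY6K-AS knockdown the median log2 change was 0.49 over the 3 pro-survival members, 0.35 over the 2 effectors and 0.20 over the 5 BH3-only members, beside 0.00 over all genes tested. Of the 10 members 8 were higher, against 50.3% of all genes; without BIK, whose filter pass rested on its knockdown libraries, 7 of 9 were higher and the BH3-only median was 0.18. Without knockdown 2 the BH3-only median was 0.07 and without knockdown 1 it was 0.34. With the GC trend removed, the pro-survival median was 0.345, the effector median 0.143 and the BH3-only median 0.321. The effector median was then the lowest, and the order of the groups was not kept. After YWHAG knockdown the medians were 0.16, −0.02 and −0.18, beside −0.05 over all genes, and 4 of 10 were higher, against 42.4%. These medians moved with single libraries: without knockdown 1 the pro-survival median was −0.03 and the BH3-only median −0.43, and without knockdown 2 they were 0.36 and −0.02. The effector median ran from −0.04 without siRNA control 3 to 0.01 without siRNA control 2. The summed RPKM of BCL2L1, BCL2L2 and MCL1 was 130 and 131 in the LNA controls and 185 in each LY6K-AS knockdown (185.5 and 184.7). BAX and BAK1 together summed to 95.6 and 96.6 RPKM in those controls and to 129 and 138 in the knockdowns. Both sums were higher without overlap, and their ratio, effectors over pro-survival, was 0.735 and 0.737 in those controls against 0.694 and 0.750 in the knockdowns, on either side of the controls.

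In the siRNA table that ratio was 0.762 and 0.740 in controls 2 and 3 and 0.380 and 0.868 in YWHAG knockdowns 1 and 2. Within this table knockdown 1 had the lowest ratio and knockdown 2 the highest. The pro-survival sum was 145 RPKM in knockdown 1, of which MCL1 made up 93.2, and 75.7 RPKM in knockdown 2, beside 81.9 and 82.7 in the controls. BCL2L1 exceeded MCL1 in knockdown 2 (ratio 1.13), as in all 4 LNA libraries (1.17 to 1.27, where intronic reads of BCL2L1 may be included), and in siRNA control 2 (1.01), and was at 0.872 of MCL1 in siRNA control 3 and 0.499 in knockdown 1. The ratio of BBC3 to PMAIP1, higher in both LY6K-AS knockdowns, was lower in both YWHAG knockdowns, at 1.45 and 1.83 in the siRNA controls and 0.927 and 0.484 in the knockdowns.

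**Figure D3:**
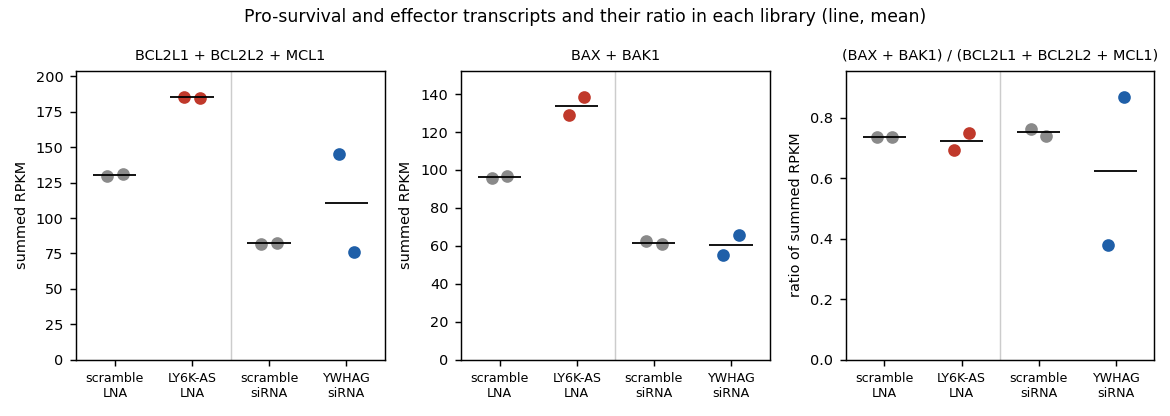
Summed RPKM of the pro-survival members (left), summed RPKM of the effectors (middle) and the ratio of effectors to pro-survival members (right) in each library (points) with group means (lines), all axes linear from 0. Both sums are higher in the LY6K-AS knockdowns while the ratio spans 0.694 to 0.750 around controls at 0.735 and 0.737; the YWHAG knockdowns lie apart at 0.380 and 0.868.

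Whether a member responded differently to the knockdowns was tested as the difference of the 2 effects over all 8 libraries. Limma called 23 of the 12861 genes that passed the filter in both tables (0.179%), and none of the 10 members was among them. BBC3 had the largest difference, 1.51 ± 0.40 (LY6K-AS effect minus YWHAG effect, limma adjusted p = 0.120, 95% interval 0.56 to 2.45). BAX differed by 0.53 ± 0.20 (limma adjusted p = 0.199), higher after LY6K-AS knockdown, and PMAIP1 by −0.52 ± 0.20 (limma adjusted p = 0.207), higher after YWHAG knockdown. These 3 had unadjusted p-values under 0.05, as did 20.4% of genes. After correction for the GC trend the differences shrank to 1.11 for BBC3, 0.33 for BAX and −0.31 for PMAIP1. BBC3 then kept an unadjusted limma p under 0.05 (0.0086), while BAX (0.134) and PMAIP1 (0.221) did not. BCL2L11, lower after both, had a difference of 0.35 ± 0.26 with an interval of −0.26 to 0.96. For MCL1 the interval ran from −1.30 to 1.49, the widest of the 10.

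CDKN1A (p21), a cyclin-dependent kinase inhibitor that stress induces, read 59.8 and 59.0 RPKM in the LNA controls and 158 and 234 in the LY6K-AS knockdowns. It was thus higher in knockdown 2 than in knockdown 1, as BBC3 was. The siRNA controls had 33.7 and 34.3 RPKM of CDKN1A and the YWHAG knockdowns 43.3 and 51.7. In those knockdowns BAX and BBC3 overlapped their controls. The log2 changes of CDKN1A were 1.68 ± 0.21 and 0.47 ± 0.15 (limma adjusted p = 0.103 and 0.266).

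Genes whose pattern was most like that of MCL1 and BCL2L11 were found among 8386 protein-coding genes with a mean of at least 2 RPKM in both tables, by Euclidean distance over the 4 log2 differences of the knockdown libraries from their controls. Nearest to MCL1 were HSPB8, a small heat shock protein (distance 0.29), the creatine transporter SLC6A8 (0.30) and the cystatin CST1 (0.34). HSPB8 had differences of 1.38 and −0.19 in YWHAG knockdowns 1 and 2, SLC6A8 1.00 and −0.25, and CST1 1.51 and −0.14, beside 1.26 and −0.30 for MCL1. Nearest to BCL2L11 were the retinoic acid receptor RARB (0.27), OLFML3 (0.28) and COCH (0.36), each lower in all 4 knockdown libraries. Distances are descriptions over 4 libraries.

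The wider apoptosis machinery was read from lists chosen by function, and no gene of these lists passed the test in either comparison. After LY6K-AS knockdown the death receptor list had 9 of 10 measured genes higher (median log2 change 0.33), 6 of them at an unadjusted p under 0.05, beside 50.3% and 13.6% of all genes tested. FAS, a death receptor, measured 3.34 and 2.78 RPKM in LNA controls and 4.86 and 6.59 in LY6K-AS knockdowns. The adaptor TRADD stood at 11.4 and 11.6 against 19.9 and 19.0, and the TRAIL receptor TNFRSF10A at 15.1 and 14.9 against 20.5 and 23.8. For both of these genes and for FAS the groups did not overlap. Downstream, the apoptosome and caspase list had 6 of 9 genes lower (median −0.32), 4 at an unadjusted p under 0.05, beside 11.7% of all genes lower at that p. CASP2 and CASP6 had log2 changes of −0.39 and −0.35 (limma adjusted p = 0.131 and 0.152). These 2 lists therefore had medians of opposite sign, which was not tested as a difference. Changes of the list genes after LY6K-AS knockdown are given without removal of the GC trend described above. The death receptor list itself holds CASP8 (0.08) and CASP10 (−0.02). The median of the apoptosome and caspase list was −0.12 in knockdown 1 and −0.41 in knockdown 2.

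Of the inhibitor of apoptosis list, 4 of 7 were higher after LY6K-AS knockdown and 3 lower (median 0.15). BIRC3 (cIAP2), also an NF-kB target, had a log2 change of 0.90, HTRA2, a mitochondrial protease that counters these inhibitors, 0.28, and BIRC5 (survivin), a mitotic chromosomal passenger protein as well, −1.08 (limma adjusted p = 0.103, 0.171 and 0.104). BIRC3 and BIRC5 were the highest and the lowest of all measured genes in these lists, the members left aside. Mitochondrial outer membrane and dynamics genes were lower in 7 of 9 (median −0.19), among them VDAC3, a channel of the outer membrane (−0.60), the inner-membrane fusion protein OPA1 (−0.67) and the mitofusin MFN1 (−0.21). The ubiquitin genes that act on MCL1 or NOXA were lower in 4 of 5 (median −0.18): the ligase HUWE1 (MULE), which marks MCL1 for degradation, was at −0.35, the deubiquitinase USP9X, which protects MCL1, at −0.33, and MARCH5 at −0.18. Transcription factors and switches of the family were higher in 7 of 10 (median 0.14), with the ubiquitin ligase MDM2 at 0.82, RELA at 0.36 and E2F1 at −0.59. Of the other BCL2 family genes 5 of 11 were measured, 3 higher (median 0.14), with BOK at 0.26, BAD at 0.24 and BCL2L12 at −0.20.

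After YWHAG knockdown the list medians lay between −0.14 and 0.03, beside −0.05 over all genes, of which 42.4% were higher. CYCS, cytochrome c itself, read 17.4 and 18.4 RPKM in the controls and 60.9 and 49.7 in the knockdowns. The groups were far apart (log2 change 1.57 ± 0.15, limma adjusted p = 0.130), though CYCS has many processed pseudogenes and reads could be split among copies. Of the 9 apoptosome and caspase genes 6 were lower, among them the initiator CASP9 (−0.39). In the mitochondrial list, 4 of 9 were higher, with the BH3-like mitophagy receptors BNIP3L (0.85) and BNIP3 (0.65) above control and VDAC3 (−0.43) below. The death receptor list had 4 of 10 higher, with FAS at 0.56, CASP8 at −0.47 and CASP10 at −0.33.

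BAD, a partner of 14-3-3 proteins, read 3.87 and 5.96 RPKM in the siRNA controls and 5.86 and 4.08 in the YWHAG knockdowns, which overlapped. The ubiquitin genes had a median of −0.09, and 1 of the 5 had an unadjusted p under 0.05 and was lower (8.9% of all genes): FBXW7, a ligase adaptor that targets MCL1 (−0.50). HUWE1 was at −0.09 and USP9X at −0.06. Of the transcription factor list 8 of 10 were lower, including E2F1 (−0.78) and MDM2 (−0.33). The inhibitor of apoptosis list was split 4 to 3, with HTRA2 at 0.23, BIRC5 at −0.16 and XIAP at −0.25. Among the other family genes 3 of 5 were lower, with BCL2A1 at −0.64, BCL2L13 at −0.21 and BOK at 0.02. Of the list genes named so far for both comparisons, E2F1, VDAC3, BIRC5, HUWE1, USP9X and CASP10 had negative changes in both. FAS, HTRA2, BOK and BAD had positive ones in both, and MDM2 and CASP8 were positive only after LY6K-AS knockdown.

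**Figure D4:**
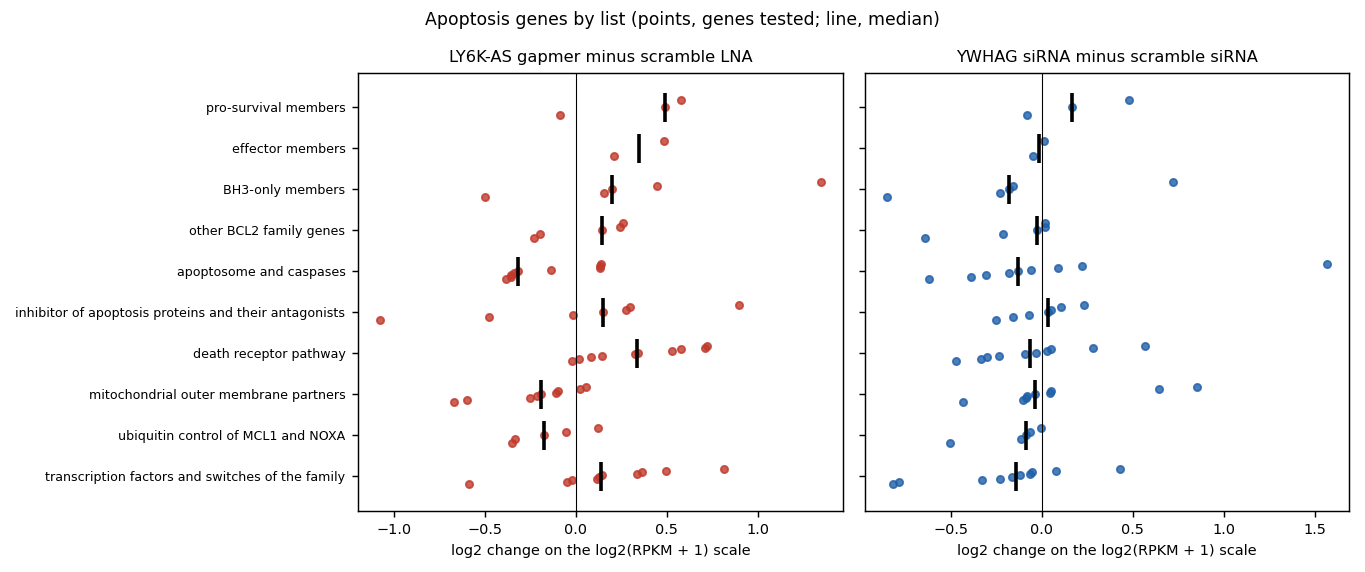
Log2 change (x axis, log2(RPKM + 1) scale) of each measured gene (points) in the member groups and the other apoptosis lists (rows), with the median of each list as a line. After the LY6K-AS gapmer the death receptor list has 9 of 10 genes above 0 and the apoptosome and caspase list 6 of 9 below; after YWHAG siRNA the point farthest to the right is CYCS at 1.57.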

How the data were processed

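A549 RNA was sequenced in 8 libraries, and the authors deposited RPKM in 2 tables, normalized separately. Per the submitters' processing notes, the tools were STAR, featureCounts, Subread and Picard and the build hg38; versions and roles were not given. Identifiers were matched to GENCODE 29 (57055 of 66206 per table); BBC3 and BCL2L11 matched with another version. Deposited RPKM times genomic span gave whole reads for 100% of values in the LNA table, and times merged exon length for 100% in the siRNA table (tolerance 0.05 reads), so LNA values were rescaled to merged exon length. The sources used here do not say whether LNA reads were counted over exons or spans.

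Genes with at least 0.5 RPKM in at least 2 of 4 libraries were compared on log2(RPKM + 1) with limma 3.58.1 under R 4.3.3 (trended variance, two-sided); Benjamini-Hochberg adjustment ran over all genes tested, at a threshold of 0.05. Changes on this scale understate those of low genes. Error terms are SE unless named. Read ratios have exact binomial 95% intervals, which cover counting error alone, as PCR copies were not told apart; 3 reads came to 0.0868 to 0.115 per 1e6 reads. The code was tested on simulated data.

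Members and lists were chosen with earlier results of these data known. The genes named were the members, both targets, CDKN1A, the 3 genes of each list with the smallest p per comparison, and the 3 genes nearest to the member with the smallest p in each direction after LY6K-AS knockdown; BAD in the YWHAG comparison was added after its values were seen, as were BCL2, HRK, BMF, BCL2L14, BCL2L15, ATF4, DDIT3 and the levels of BCL2A1 in the observations and the cell type markers named, and some genes that this rule takes are not reported here. Alternatives were other pseudocounts (0.1, 0.5), no filter, voom with TMM on recovered reads, 1 fit over all libraries, median centring, values as deposited, a replicate block, each library left out and, added later, removal of a GC trend. Same-numbered LNA libraries had a correlation of deviations of 0.08 over genes.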

Additional observations from a re-analysis of the deposited data

How the results depend on the processing

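No member passed the adjusted threshold under another pseudocount, no filter, voom, median centring, GC trend removal, values as deposited or 1 fit over all 8 libraries. That fit, on 12861 genes, called 64 genes after LY6K-AS knockdown and 214 after YWHAG knockdown, where the separate fits called 0. The replicate block, fitted for the LNA table, called 0, but LNA control and knockdown libraries share only a number. No paired analysis was possible because the siRNA control columns carry other numbers than their labels, for the YWHAG comparison and for the difference of effects. Leaving out a library gave 0 to 7725 called genes after LY6K-AS knockdown (7725 without knockdown 1, 4350 without knockdown 2, 0 without either control), where the spread comes from the controls alone and the single knockdown library is taken to share it; the SD between libraries was 0.16 for controls and 0.40 for knockdowns. BCL2L1, MCL1, BAX and BBC3 stayed higher whichever knockdown library was left out. For YWHAG the count stayed 0, and for the difference of effects it ran from 0 to 1185, beside 23, and was 44 with values as deposited. That count was 0 without either LNA control, either siRNA control or LY6K-AS knockdown 2, 1185 without LY6K-AS knockdown 1, and 718 and 735 without YWHAG knockdowns 1 and 2. Directions after LY6K-AS knockdown held for all 10 members in every alternative run. After YWHAG knockdown 6 changed sign: over the libraries left out BCL2L1 ran from −0.032 to 0.36, BCL2L2 from −0.42 to 0.25, MCL1 from −0.30 to 1.26 (−0.30 without knockdown 1), BAX from −0.22 to 0.12, BAK1 from −0.14 to 0.17 and BBC3 from −0.43 to 0.12. BAX was also at 0.020 by voom and BAK1 at −0.0081 with the GC trend removed. The difference of effects for BCL2L2, −0.0031, was 0.0026 with a pseudocount of 0.1, 0.013 with values as deposited, and ran from −0.34 to 0.33 over the libraries left out. MCL1 gave −0.68 without YWHAG knockdown 2 and 0.87 without knockdown 1, past the threshold in both, and BAK1 −0.012 with the GC trend removed. BAX (0.71 without YWHAG knockdown 2) and BBC3 (1.87 without LY6K-AS knockdown 1) passed there too. With values as deposited, BCL2L11 was at −0.19 and BBC3 at 1.02 after LY6K-AS knockdown, and BIK was not tested; by voom PMAIP1 was at 1.12 after YWHAG knockdown. Deposited LNA values differ from the rescaled ones by a constant factor for each gene, so ratios between libraries are the same on both. On the log2(RPKM + 1) scale the lower deposited values give smaller changes. The cause of the other shifts was not tested.

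With 2 libraries a group, the exact ordering of 4 libraries could not separate any single gene at the threshold, and BIK rested on 11 to 48 reads a library. RNA levels only were measured; protein, localisation and cell death were not.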

Other observations

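Of the 11 family genes outside the members, 6 were below the filter in both tables. BOK (18.1 to 23.7 RPKM), BAD (18.2 to 23.2) and BCL2L12 (18.3 to 22.5) were measured in the LNA table. BCL2L15, below the filter, reached 1.18 RPKM in YWHAG knockdown 1 alone. BCL2, the founding pro-survival gene, stood at 0.345 and 0.331 RPKM in the LNA controls and 0.253 and 0.242 in the LY6K-AS knockdowns, and at 0.159 to 0.222 RPKM in the siRNA table. HRK, a BH3-only gene, did not exceed 0.0889 RPKM in any library, nor BCL2L14 0.0691. BMF, a BH3-only gene tied to the cytoskeleton, read 0.195 and 0.264 RPKM in the LNA controls, 0.561 and 0.333 in the LY6K-AS knockdowns, 0.181 and 0.186 in the siRNA controls and 0.483 and 0.163 in the YWHAG knockdowns. BCL2A1, a pro-survival gene driven by NF-kB, was the most uneven of the measured ones, at 5.16 and 4.84 RPKM in the LNA controls, 7.33 and 2.14 in the LY6K-AS knockdowns, 4.45 and 4.0 in the siRNA controls and 3.99 and 1.25 in the YWHAG knockdowns.

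Transcripts other than MCL1 also differed between the YWHAG knockdowns, in values picked out after they were seen. ATF4, a transcription factor of the integrated stress response, read 98.2 and 87.7 RPKM in the siRNA controls and 87.4 and 180 in the knockdowns, so knockdown 2 was high where MCL1 was low. DDIT3 (CHOP) read 5.75 and 6.19 RPKM in the controls and 9.28 and 4.26 in the knockdowns. Knockdown 2 was the library with the lower YWHAG level (4.91 RPKM against 13.5).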
